A study of Drosophila montana and Drosophila virilis with 24 samples.

Results

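Female Drosophila montana flies that had recovered for 1 h from chill coma were compared with flies that had never been chilled. Chill coma is the reversible immobility that cold brings on in insects. The comparison rests on 6 of the 24 arrays of a study of cold exposure in D. montana and D. virilis, and its members were chosen by their titles: 3 arrays of 1-hour recovery and 3 arrays of 19°C control. Each array carried whole-body RNA from 1 pool of 10 mature females aged 20 days, and pooled flies give no spread between individuals. All groups had a light cycle of 22 h light and 2 h dark and were sampled 5 to 6 h after lights on. Control flies spent their 20 days at 19°C. Recovering flies were held at -6°C for 16 h and frozen 1 h after that cold had ended. The other D. montana groups used here were flies sampled 15 min after the same 16 h at -6°C, cold-hardened flies given 1 h at 0°C, and cold-acclimated flies given 14 days of control conditions and then 6 days at 5°C, each with 3 pools. The labels name no genotype, strain or mating state.

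In flies such as D. melanogaster, cold slows ion pumps, lets ion gradients run down and silences nerve and muscle, and rewarming restores them. Chaperones are made mainly on rewarming and not in the cold itself: Hsp70 proteins bind unfolded proteins, Hsp40 proteins deliver them, and BAG-domain proteins release them. The noncoding RNA hsr-omega gathers RNA-binding proteins into nuclear speckles during stress. Gene roles below are those known in D. melanogaster.

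The custom array measured 218 named genes, mostly candidates for cold response, clock, vision, courtship and neuronal function, so its gene set is not a sample of the genome. Values are log2 processed signals minus each array's 75th percentile, averaged over a gene's probes, and a value of 0 is therefore the 75th percentile of that array. A level is comparable between arrays for a gene but not between genes. In all, 213 genes entered the test, and 209 of them were well above background on all 3 control and all 3 recovery arrays. The recovery arrays were dimmer: their 75th percentile was 413 to 576 units against 699 to 839 in controls, a mean gap of -0.59 log2 units, and 77.1% to 78.0% of their spots were well above background against 81.2% to 82.6%. Scaling to the 75th percentile takes out that gap in overall brightness, and its part in the results below was not tested. Recovery replicate 3 was the dimmest array, with 31 genes lying more than 0.5 log2 units below the mean of the other 2 recovery arrays. For the other 5 arrays, set against their own groups, this held for 1 to 6 genes. In either direction, recovery replicate 1 lay as far from its group, with a median size of gap of 0.25 against 0.24 for replicate 3. That median was 0.15 for recovery replicate 2 and 0.08 to 0.12 for the control arrays. Each of the 3 slides held 1 array of each group. Of the cell type markers looked for, all 9 of 9 photoreceptor genes, 2 of 6 neuron genes, 2 of 6 muscle genes and 1 of 7 fat body genes were measured and well above background in controls, and no ovary, testis and male gland, or hemocyte marker was measured. The photoreceptor markers lay between -0.44 and 0.01 in recovery minus control, the muscle markers between -0.08 and 0.05, the neuron markers at -0.19 and 0.24, and the fat body marker Adh at -0.40, none past the threshold. The neuron gene at 0.24, para, was well above background on no recovery array. In whole-body RNA, fewer cells of a type and less RNA per cell cannot be told apart.

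After 1 h of recovery 6 genes differed from control at an adjusted p under 0.05, which is 2.82% of the genes tested. Of these, 5 were higher (2.35%) and 1 was lower (0.469%). The higher genes were hsr-omega, the chaperone genes Hsp68, stv and DnaJ-1, and Thor, an inhibitor of translation initiation. The lower gene was Eip71CD, a methionine sulfoxide reductase, and its change was the largest in either direction. At an unadjusted p under 0.05 there were 33 genes. The 3 recovery arrays all lay above the 3 control arrays for 32 genes (15%) and all below for 21 genes (9.86%). The median change over all genes was -0.05 log2 units, the median size of a change was 0.17, and 15 genes moved by more than 0.5, of which 9 did not pass. Of the 213 genes, 91 lay above 0, and the sign counts of gene lists below stand beside that share.

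**Figure D1:**
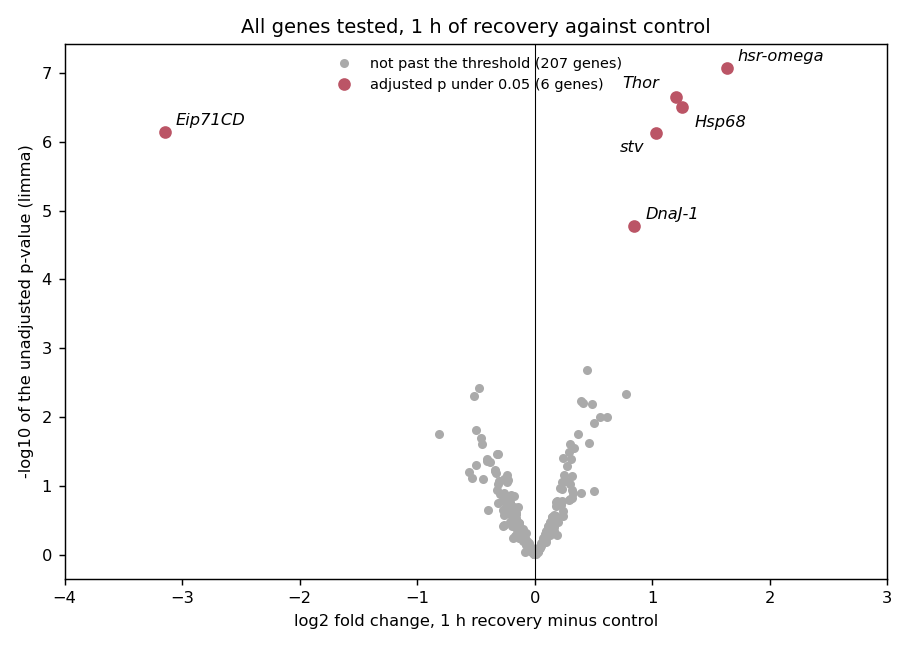
Log2 fold change of each of the 213 genes, 1 h recovery minus control (horizontal axis), against the -log10 of its unadjusted limma p-value (vertical axis). The 6 labelled genes past the threshold lie apart from the other 207 on the vertical axis. On the horizontal axis the changes of the 207 stay between -0.81 (na) and 0.78 (ato), and DnaJ-1, at 0.85, lies close to that range.

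The plot of all genes shows a gap in p-value between the 6 genes and the rest, since the next smallest p-value belonged to the ubiquitin gene Ubi-p63E with an adjusted p of 0.063. The gene with the widest change outside the 6, the ion channel gene na, was well above background on all control arrays and on no recovery array. Its measured difference of -0.81 had an adjusted p of 0.200.

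The noncoding stress RNA hsr-omega had levels of 2.58, 2.71 and 2.54 on control arrays 1 to 3 and of 4.60, 4.30 and 3.82 on recovery arrays 1 to 3. Every recovery array lay more than 1 log2 unit above every control array, with array 3 the lowest of the recovery arrays. The gene was 3.10-fold higher in recovery (log2 change 1.63 ± 0.18 SE, n = 3 pools per group, adjusted p = 1.83e-05 by limma), and its 3 probes gave changes of 1.61 to 1.66. Within the 3 slides the difference was 2.02, 1.76 and 1.11.

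Of the 7 measured genes of the inducible Hsp70 family and its co-chaperones, 3 rose and 0 fell. Over all genes tested, 2.35% rose and 0.469% fell. Hsp68, a stress-inducible member of the Hsp70 family, had levels of 1.54, 1.46 and 1.38 in controls and 3.08, 2.53 and 2.54 in recovery. The groups did not overlap, and recovery array 1 was the highest. Hsp68 was 2.39-fold higher (1.26 ± 0.15 SE, adjusted p = 2.26e-05 by limma), with slide differences of 1.54, 1.15 and 1.08, and all 7 of its probes were higher by 0.73 to 1.64. The BAG-domain co-chaperone gene stv (starvin) had levels of -0.84, -1.03 and -0.83 in controls against 0.41, 0.00 and -0.03 in recovery. Again the groups were separate and recovery array 1 stood highest. The change of stv was 2.04-fold (1.03 ± 0.13 SE, adjusted p = 3.14e-05 by limma), and within slides it was 1.26, 0.84 and 1.00. DnaJ-1, an Hsp40 co-chaperone, had levels of 2.72, 2.83 and 2.61 in controls against 3.90, 3.45 and 3.35 in recovery. This was the smallest of the 5 rises, 1.80-fold (0.85 ± 0.14 SE, adjusted p = 0.000596 by limma), with slide differences of 1.18, 0.84 and 0.52, and its groups were also separate.

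The other 4 genes of that list were Hsf, the transcription factor that drives heat shock genes, Hop, an adaptor between Hsp70 and Hsp90, the J-domain gene Droj2, and CG7182. None passed, and their changes were, in that order, -0.56, -0.02, 0.01 and -0.09. The value for Hsf rests on 1 array: its recovery levels were -0.95, -1.15 and -2.32, against -1.05, -0.92 and -0.77 in controls. Over all 7 genes the list's median was 0.01, beside -0.05 over all genes.

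**Figure D2:**
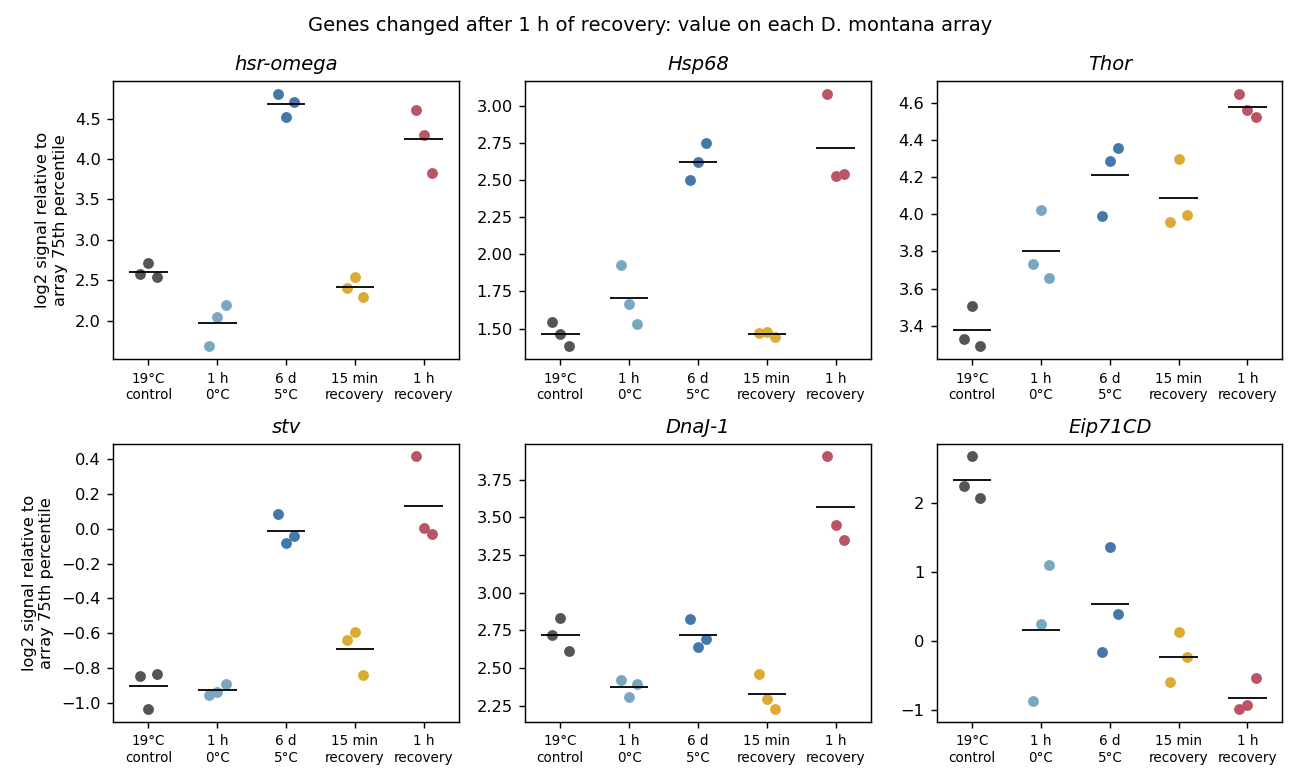
Level of each of the 6 genes past the threshold on each of the 15 D. montana arrays, as log2 signal relative to the array's 75th percentile; points are arrays, lines are group means, and each panel has its own vertical axis. In every panel the 1 h recovery arrays lie wholly above, or for Eip71CD wholly below, the 19°C controls, while hsr-omega, Hsp68, stv and DnaJ-1 at 15 min of recovery lie nearer to control.

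Thor encodes the 4E-BP that binds eIF4E and holds back cap-dependent translation when insulin and TOR signalling are low. Its levels were 3.33, 3.51 and 3.29 in controls and 4.65, 4.56 and 4.53 in recovery. The 3 recovery arrays lay close together, and every one of them above every control. Thor was 2.31-fold higher (1.21 ± 0.14 SE, adjusted p = 2.26e-05 by limma), with slide differences of 1.32, 1.27 and 1.02. It was the 1 gene of 5 measured in the list of insulin signalling and diapause that passed, beside 2.82% of all genes tested. The insulin receptor gene InR had a change of -0.45 (adjusted p = 0.231) with its recovery arrays all below the controls, and cpo, Pi3K92E and Ilp7 did not pass either. The list's median was 0.10.

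Eip71CD encodes a methionine sulfoxide reductase, an enzyme that repairs oxidised methionine, and was first known as an ecdysone-induced gene. Control levels were 2.24, 2.67 and 2.07, and recovery levels were -0.99, -0.93 and -0.54. Each recovery array was lower than each control array by more than 2 log2 units. The level was 8.86-fold lower in recovery (-3.15 ± 0.40 SE, adjusted p = 3.14e-05 by limma), and the 4 probes gave -3.18 to -3.11. Within slides the differences were -3.23, -3.0 and -3.21.

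**Figure D3:**
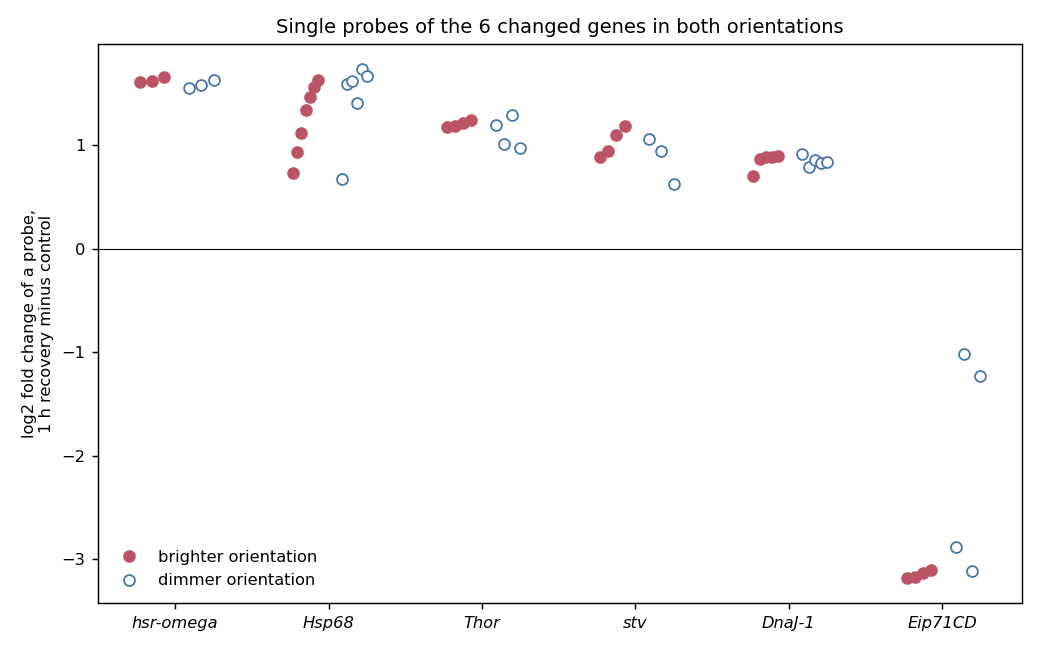
Log2 fold change of single probes of the 6 genes, 1 h recovery minus control; filled points are the brighter orientation used for the levels and open points the dimmer orientation of the same fragments where it was above background. All probes of a gene lie on the same side of 0, the filled points of Hsp68 spread from 0.73 to 1.64, and those of Eip71CD lie between -3.18 and -3.11.

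The array carries each fragment in both orientations, and the brighter one was used. As the plot of single probes shows, no probe of the 6 genes went against the others. Which strand each probe reads is not stated by the labels or the files. No probe sequence, promoter or mature transcript sequence was analysed here.

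The call of all 6 genes held with the slide as a block, and 8 more then passed, for 14 in all: dsf, ato, drl, Ubi-p63E, Hsp26, e, mnb and Ork1, of which mnb and Ork1 were lower. Normexp background correction left 2 calls, stv and Eip71CD, 1 in each direction, since hsr-omega (1.05, adjusted p = 0.134), Hsp68 (0.76, adjusted p = 0.134), Thor (0.63, adjusted p = 0.198) and DnaJ-1 (0.29, adjusted p = 0.379) kept their direction but did not pass. DnaJ-1 also missed the threshold with scaling on the spike-in controls (0.69, adjusted p = 0.0957) and on the array median (0.62, adjusted p = 0.0726), where Ork1 passed at -0.70 and the split became 4 higher and 2 lower. Without recovery replicate 3 the same 6 genes passed, with changes of 1.84 for hsr-omega, 1.34 for Hsp68, 1.23 for Thor, 1.11 for stv, 0.96 for DnaJ-1 and -3.29 for Eip71CD.

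Other chaperone families had no member past the threshold. Of 5 small heat shock protein genes, whose products hold unfolding proteins in a soluble form, Hsp26 was at 0.48 (adjusted p = 0.107), Hsp23 at 0.39, Hsp67Bc at 0.37, Hsp20 at 0.32 and l(2)efl at -0.05. For Hsp26, Hsp23 and Hsp67Bc all 3 recovery arrays lay above the controls, which held for 15% of all genes tested. The family's median was 0.37, and it ran from -0.13 to 0.38 over the other background corrections, scalings and probe choices, so its sign depended on the processing. Hsp26 had levels of 8.58, 8.81 and 8.71 in controls and 9.14, 9.04 and 9.37 in recovery, measured by a single probe that was the brightest of all on each of these 6 arrays. Among 7 constitutive and organelle chaperone genes the changes ran from -0.27 for Hsc70Cb to 0.46 for the Hsp60-family gene Hsp60B, with Hsp83, the fly Hsp90, at -0.19. Hsp83 had levels of 4.40 and 4.31 on recovery arrays 1 and 2, between its control levels of 4.28 and 4.47, and of 3.75 on recovery array 3. All 3 genes of the endoplasmic reticulum list lay below 0 without passing: PEK, the kinase that slows translation when proteins misfold there, at -0.46, Gp93 at -0.26 and Hsc70-3, the fly BiP, at -0.22.

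The list of cold response candidates held 7 measured genes, of which 2 passed, beside 2.82% of all genes tested. These were the hsr-omega and stv already described. Fst (Frost), a gene that D. melanogaster induces during recovery from cold, was at 0.03 ± 0.27 SE. Its levels of 0.42, -0.48 and 0.34 in controls and 0.23, 0.43 and -0.29 in recovery overlapped fully. Dca, a regucalcin-like gene known for its cold response in D. melanogaster, was at -0.31 ± 0.22 SE with overlapping arrays. The fatty acid desaturase gene desat1 was at -0.01 ± 0.20 SE, and Hsp23 and cpo were at 0.39 and 0.19.

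**Figure D4:**
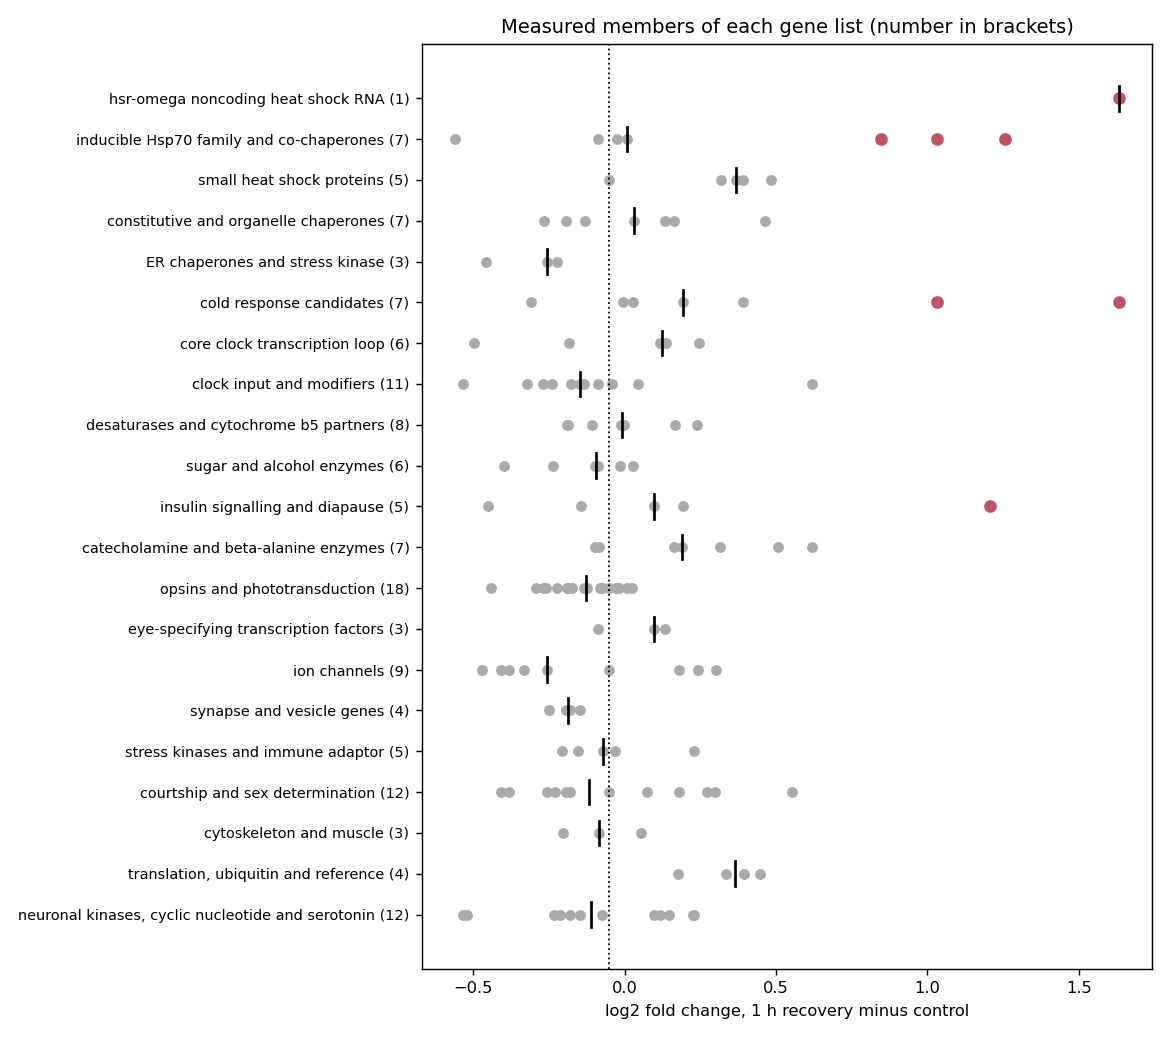
Log2 fold change, 1 h recovery minus control, of every measured member of the 21 gene lists; points are genes, red points passed the threshold, short lines are list medians and the dotted line is the median of all genes at -0.05. Red points lie in 4 lists, and the members of the other 17 lists lie within 0.62 of 0.

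The plot of gene lists shows members past the threshold in 4 lists and none in the other 17. No gene of the clock passed. In the core clock loop, of 6 genes, the repressor genes per and tim were at 0.25 and 0.13, the activator genes Clk and cyc at 0.12 and 0.13, the transcription factor gene vri at -0.18 and cwo, an E-box repressor, at -0.50 (adjusted p = 0.195). The cwo recovery arrays, at -2.75, -2.90 and -3.22, lay below the control arrays at -2.75, -2.41 and -2.22, with recovery array 1 and control array 1 nearly level. The light receptor gene cry was at -0.09.

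No metabolic gene passed. All 8 desaturase and cytochrome b5 genes lay between -0.19 and 0.24, and the 6 sugar and alcohol enzymes between -0.40 for Adh and 0.03 for Pgm, with Treh, which splits trehalose, at -0.24. The groups were separate for 3 of these genes, beside 15% of all genes tested wholly above control and 9.86% wholly below. The recovery arrays of Adh, at 5.56, 5.79 and 5.65, all lay below its controls at 5.97, 5.95 and 6.27. Those of CG17928 also lay below, and those of CG8630 lay above. In the list of catecholamine and beta-alanine enzymes, 5 of 7 genes were above 0 and none passed. Among them ebony (e), which joins beta-alanine to dopamine, and Ddc, which makes dopamine, were at 0.62 (adjusted p = 0.143) and 0.31. Ebony had levels of -2.61, -2.24 and -2.36 in controls and -2.11, -1.92 and -1.33 in recovery.

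Neuronal and sensory genes had no member past the threshold either. Of 18 opsin and phototransduction genes, 16 lay below 0, within a range of -0.44 to 0.02, while 91 of all 213 genes lay above 0. The median of the 18 was -0.13, or -0.36 to 0.03 under the other processing. Of 9 ion channel genes, Ork1, a potassium leak channel, was at -0.47 (adjusted p = 0.101) with control levels of -1.09, -1.34 and -1.23 and recovery levels of -1.56, -1.76 and -1.77. The potassium channel genes eag and slo were at -0.41 and -0.38, and eag was well above background on 1 of 3 recovery arrays. The kinase gene mnb (minibrain) was at -0.52 (adjusted p = 0.105). Its recovery levels did not overlap control, at -1.25, -1.58 and -1.78 against -1.05, -1.03 and -0.96, and without recovery replicate 1 the difference was -0.67 and passed (adjusted p = 0.0304). Another kinase gene, sgg, was at -0.53. Its level was -0.39 on recovery array 3 beside 0.80 and 0.71 on arrays 1 and 2, and without array 3 the difference was -0.15. In the courtship list, of 12 genes, the nuclear receptor gene dsf had the smallest p-value, with a change of 0.55 (adjusted p = 0.143). The 5 genes of stress kinases and the immune adaptor ran from -0.21 for p38b to 0.23 for bsk, the fly JNK.

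All 4 genes of the translation and ubiquitin list lay above 0 and none passed. The polyubiquitin gene Ubi-p63E was at 0.45 (7.87, 8.07 and 7.99 in controls, 8.45, 8.43 and 8.40 in recovery), and RpL40, a ribosomal protein made fused to ubiquitin, at 0.39. The list's median of 0.36 ran from -0.24 to 0.59 under the other processing.

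The recovery arrays were next set against the flies sampled 15 min after the same cold. This difference takes in no control array, but it reuses the 3 recovery arrays and the spread estimated over all 5 groups. Here 4 genes (1.88%) were higher at 1 h and 0 were lower (0%), among 18 genes at an unadjusted p under 0.05. They were hsr-omega, by 1.83 ± 0.18 SE (adjusted p = 3.81e-06 by limma), Hsp68, by 1.25 ± 0.15, DnaJ-1, by 1.24 ± 0.14, and stv, by 0.82 ± 0.13. At 15 min the levels of hsr-omega were 2.40, 2.55 and 2.29, of which 2.55 lay inside its control range and the others below it. Those of Hsp68 were 1.47, 1.48 and 1.44, inside its control range. DnaJ-1 at 15 min, at 2.46, 2.30 and 2.23, lay below its controls without passing (-0.39, adjusted p = 0.0859). For stv the 15 min levels were -0.63, -0.59 and -0.84. With normexp correction 1 gene passed, and with spike-in scaling 3. A single gene was lower among the 5 that passed with the slide block or with only the groups compared, and among the 6 after quantile normalization or in the authors' table.

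Thor and Eip71CD were not past the threshold between 15 min and 1 h, at 0.49 ± 0.14 SE (adjusted p = 0.0929) and -0.59 ± 0.40 SE (adjusted p = 0.760). Their 15 min levels were 3.96, 4.30 and 4.00 for Thor and -0.59, 0.12 and -0.23 for Eip71CD. Those of Thor lay between its control and 1 h arrays, and for Eip71CD 1 of the 15 min arrays lay inside the 1 h range. Against the same control arrays, where 6.57% of all genes passed at 15 min, Thor was at 0.71 (adjusted p = 0.00835) and Eip71CD at -2.56 (adjusted p = 0.00199) after 15 min.

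Against cold hardening, 9 genes passed (4.23%), 7 higher (3.29%) and 2 lower (0.939%) in 1 h recovery. The rises were 2.27 ± 0.18 SE for hsr-omega, 1.20 ± 0.14 for DnaJ-1, 1.05 ± 0.13 for stv, 1.01 ± 0.15 for Hsp68 and 0.78 ± 0.14 for Thor, together with Ddc at 0.64 and the phosphoglucomutase gene Pgm at 0.47. The lower genes were mnb at -0.77 and Ork1 at -0.58. In hardened flies hsr-omega had levels of 1.68, 2.05 and 2.19, all below the controls, but it did not pass against control there (-0.63, adjusted p = 0.136). Eip71CD levels in hardened flies were spread widely, at -0.87, 0.25 and 1.1, and its difference from 1 h recovery was -0.98 (adjusted p = 0.149). Against the same controls Eip71CD was at -2.17 in hardened flies (adjusted p = 0.0128), the 1 gene of 213 that passed there (0.469%). The count was sensitive to scaling, with 39 genes (5 higher) on the array median, 16 (7 higher) after quantile normalization, 18 (7 higher) in the authors' value table, 5 (all higher) on the spike-in controls and 9 (all higher) with both orientations averaged, and it was 6 to 18 when single arrays were left out, with 18 without recovery replicate 1.

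Against cold acclimation, 47 genes passed (22.1%), 29 higher (13.6%) and 18 lower (8.45%) in 1 h recovery. The split of directions depended on the scaling: 8 of 35 genes were higher on the spike-in controls, 12 of 45 on the array median, 17 of 48 after quantile normalization, 18 of 50 in the authors' value table and 45 of 63 with both orientations averaged, and normexp left 1 gene. The 5 largest of the higher ones were desat1 by 1.85 ± 0.20 SE, Pgm by 1.73 ± 0.12, CG12030 by 1.57 ± 0.13, the desaturase gene desat2 by 1.34 ± 0.21 and Adh by 1.32 ± 0.32. Of these, desat1, Pgm and Adh were at -0.01, 0.03 and -0.40 in 1 h recovery against control, and at -1.86, -1.70 and -1.72 in acclimation against the same controls, a comparison in which 26.8% of all genes passed. Among the lower genes were ey, a master gene of the eye, at -1.79 ± 0.12 SE, and per, at -0.42 ± 0.13 SE.

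Of the 6 genes changed after 1 h of recovery, 2 differed from acclimation. DnaJ-1 was higher by 0.85 ± 0.14 SE (adjusted p = 0.000389), and its acclimated levels of 2.82, 2.64 and 2.69 lay within its control range. Eip71CD was lower by 1.35 log2 units (-1.35 ± 0.40 SE, adjusted p = 0.0236), and acclimated flies themselves were at -1.80 for Eip71CD against the same controls (adjusted p = 0.00331). The other 4 did not pass: hsr-omega at -0.44 ± 0.18 SE (adjusted p = 0.0917), Thor at 0.37 ± 0.14 SE (adjusted p = 0.0747), Hsp68 at 0.09 ± 0.15 SE and stv at 0.14 ± 0.13 SE. Acclimated flies had levels of 4.81, 4.52 and 4.71 for hsr-omega, 2.50, 2.62 and 2.75 for Hsp68, and 0.08, -0.08 and -0.05 for stv, and these ranges overlapped those of 1 h recovery. Set against the same controls, acclimated flies also passed for 5 of the 6 genes, all but DnaJ-1, beside 26.8% of all genes tested. In that comparison hsr-omega was at 2.07.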

How the data were processed

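Each pool's RNA (600 ng, per the labels' protocols) was hybridised in 1 colour (Cy3). The authors deposited the intensity of each spot as scanner output (per the file headers, from Agilent Feature Extraction 10.7.1.1), whose processed signal has the background taken off within an array, with no scaling between arrays. Their table of processed intensities, whose normalization is not stated, served as an alternative. The submitters' processing notes name limma. No array was dropped, no spot was saturated, and spots with an outlier flag were left out.

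Processed signals were put on a log2 scale, averaged over 8 spots for each of 1850 probes, and reduced by the array's 75th percentile. Of each of 925 probe pairs the orientation that was brighter over all 24 arrays was kept. A probe entered if, in 1 group or more, every array had over 0.5 of its spots well above background; 5 genes had no such probe. Gene names come from the probe names, and 160 of 218 match RefSeq symbols. Models used limma 3.58.1 (lmFit, eBayes) in R 4.3.3 on the 15 D. montana arrays (5 groups), with Benjamini-Hochberg adjustment over 213 genes and a threshold of 0.05; the procedure was tested on simulated data. Replicates are separate pools, per the labels. The number of arrays limits the precision.

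The members, gene lists, tests and rule for named genes were chosen with earlier results of these data known. That rule takes the largest rises and falls past the threshold with separate arrays, the top 2 genes of every list by p-value, a set of stress, clock and metabolic genes, and genes past the threshold against 15 min. Other genes, such as ato, drl, na and Hsf, were named after their values were seen. Alternatives were the replicate number or slide as a block (the slide block was added after seeing the data), only the groups compared, normexp background correction (offset 50, on median spot signals in place of the planned mean signals), other scalings, filters and probe orientations, array weights, and single arrays left out. The planned description of promoter motifs was not analysed here.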

Additional observations from a re-analysis of the deposited data

Results flagged for a closer look

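The opposite, dimmer orientation of the probe pairs lies outside the levels reported above. Fitted alone over the 177 genes it could measure, it gave 6 genes past the threshold, 5 of them higher after 1 h of recovery, and these were the same 6 genes as in the brighter orientation. The log2 changes were 1.59 for hsr-omega, 1.45 for Hsp68, 1.12 for Thor, 0.88 for stv and 0.85 for DnaJ-1. Eip71CD was at -2.06. At an unadjusted p under 0.05 there were 65 genes in the dimmer orientation. Most of the 177 genes lay above 0 there, against 91 of 213 in the brighter orientation. A rise was therefore the common direction among the dimmer probes, and its cause was not tested. Changes of genes that did not pass ran there from -0.60 for Rev1 to 1.36 for P5cr. The sizes for Thor, stv and DnaJ-1 thus lay inside the range of genes that did not pass. Both orientations were read on the same arrays from the same RNA, so the overlap is no independent test.

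Between 15 min and 1 h of recovery the test of the difference itself passed for 4 genes. The log2 differences were 1.83 for hsr-omega, 1.25 for Hsp68, 1.24 for DnaJ-1 and 0.82 for stv.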

How the results depend on the processing

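Against control, the 6 calls became 14 with the replicate block, 14 with the slide block (the same 14 genes), 19 with array weights (a fit that gave a convergence warning, here and in the counts below) and 2 after normexp, and stayed at 5 to 8 under the other alternatives and at 6 to 7 with single arrays of the compared groups left out. All 6 genes kept their direction under these alternatives, and losses of a call are given above. The replicate numbers were not taken to pair the arrays, since the titles number the 1 h recovery pools 1 to 3 and their source names 4 to 6, and the correlations of same-numbered deviations for 1 h recovery and control, numbered by title, were 0.09, 0.26 and 0.17. The 4 genes above 15 min became 1 after normexp, 3 on spike-in scaling, 5 with the slide block or only the groups compared, 6 after quantile normalization or in the authors' table, and 4 to 5 with single arrays left out. The 9 genes against hardening became 17 with the slide block, 5 with only the groups compared, 2 after normexp, 5, 39 and 16 on spike-in, median and quantile scaling, 16 with array weights and 18 in the authors' table, and 6 to 18 with single arrays left out. The 47 genes against acclimation became 25 with only the groups compared, 1 after normexp and 74 with array weights, and 32 to 43 with single arrays left out. The causes were not tested. The median of all genes shifted by -0.16 on the spike-in controls, -0.23 on the array median, -0.11 after quantile normalization, 0.11 with both orientations and -0.11 in the authors' table. Quantile normalization and the authors' table gave no value for Hsp26, the brightest probe on these arrays, whose values they set equal.

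Signs turned only for named genes that had not passed. After normexp the changes were cwo 0.52, sls 0.70, CG9747 -0.16, CG8630 -0.38, PEK 0.53, ey 1.35, InR 0.98, Ork1 0.085, eag 1.37, ninaC 0.41, trp 0.74, Hsp26 -0.13, bsk -0.23, Caki 0.38, shi 0.39, Ubi-p63E -0.16, RpL40 -0.22, Hsp23 -0.21, vri 0.37, cry 0.0014, Pgm -0.54, Mhc -0.55. With both orientations the changes were Hsc70Cb 0.081, Act42A 0.13, sls 0.038, Hsc70-3 0.12, for 0.061, ninaC 0.14, Adh 0.22, shi 0.032, Hsp83 0.31, Dca 0.000668, desat1 0.41, cry 0.0396, imd 0.14. On the array median the changes were CG8630 -0.063, so -0.095, bsk -0.000782, Fst -0.20, tim -0.10, Clk -0.11, Pgm -0.20, Mhc -0.18. On the spike-in controls the changes were so -0.025, Fst -0.13, tim -0.032, Clk -0.043, Pgm -0.13, Mhc -0.11. After quantile normalization the changes were CG8630 -0.017, so -0.11, Fst -0.039, tim -0.074, Clk -0.12, Pgm -0.029, Mhc -0.042. In the authors' table the changes were CG8630 -0.013, so -0.11, Fst -0.054, tim -0.066, Clk -0.11, Pgm -0.00299, Mhc -0.033. With array weights the changes were p38a 0.016. With single arrays left out the changes ran from -0.26 to 0.23 for Fst, from -0.32 to 0.012 for Hsp83, from -0.0022 to 0.16 for Mhc, from -0.00096 to 0.0503 for Pgm, from -0.15 to 0.017 for cry, from -0.19 to 0.19 for desat1, from -0.10 to 0.017 for imd, from -0.21 to 0.026 for sls, from -0.36 to 0.056 for vri. The number of arrays and the dimmer recovery arrays limit what small changes could be measured, and eag, na, para and pwn were not well above background on all recovery arrays.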

Other observations

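Ribosomal protein genes outside the lists lay with the translation genes without passing in the fit reported above. The median of that translation list ran from -0.24 to 0.59 under the other processing. RpL27A was at 0.41 (adjusted p = 0.107), with levels of 7.18, 7.29 and 7.24 in controls and 7.61, 7.60 and 7.72 in recovery, and RpL19 was at 0.31 (adjusted p = 0.293). With array weights, the fit that gave a convergence warning, RpL27A passed at 0.38 (adjusted p = 0.0196 by limma) and RpL19 did not. Among all genes that did not pass, ato had the highest change, 0.78 (adjusted p = 0.105), and drl, named after its value was seen, was at 0.51 (adjusted p = 0.164). For both, the recovery arrays lay above all controls, but their single probes ranged from 0.08 to 1.14 for ato and from 0.16 to 1.13 for drl.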
